A study of Mus musculus with 43 samples.

Results

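A single exposure to ultraviolet B light (UVB) in the skin of NZM mice is described here across all genes measured. The libraries were chosen by their labels of strain and regimen, which gave 10 of the 43 libraries in the series. The 5 exposed libraries (labelled samples 1, 3, 5, 46 and 47) came from back skin of female NZM mice aged 10 to 13 weeks that received 300 mJ/cm2 of UVB as 1 exposure and were biopsied 24 h later. The 5 unexposed libraries (samples 31, 32, 33, 34 and 35) came from back skin of female NZM mice of the same ages that received no UVB. NZM is the line called NZM2328 in the series title, a mouse strain prone to lupus. The same 2 regimens in iNZM (5 exposed and 4 unexposed libraries) and WT (5 and 4) are used to test where the NZM response differed. The labels define neither of those strains. These libraries also entered the shared estimate of spread behind the p-value of every gene. So did the libraries of each strain given 5 UVB exposures labelled 100 mJ/cm2. Poly-A RNA of whole back skin was sequenced, so epidermis, hair follicles, dermis, fat and muscle were measured together, and fewer cells of a type and less RNA per cell cannot be told apart. The labels do not say that each library came from a separate animal, so p-values measure only the spread between libraries. For the gene tests that spread was estimated over all 43.

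UVB is absorbed mainly in the epidermis, where it damages DNA and starts an inflammatory response. Keratinocytes born in the basal layer normally exchange basal keratins for those of the upper layers and then build a cornified envelope from loricrin, small proline-rich and late cornified envelope proteins, whose genes lie side by side in the epidermal differentiation complex. Injured keratinocytes instead switch on the stress keratins, growth factors of the epidermal growth factor family and chemokines that call in neutrophils and monocytes, while resident Langerhans cells leave the epidermis.

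Values are the authors' normalised read counts, and libraries are given in the order just listed. Differences are limma estimates on the log2(value + 1) scale, exposed minus unexposed, with their standard error (SE), and a gene is said to have risen or fallen where the p adjusted over all genes tested was below 0.05. Depth was 24.93 to 29.55 M reads in the exposed libraries and 21.06 to 26.48 M in the unexposed ones (exact permutation p = 0.03175, two-sided, n = 5 each), and the 10 most abundant genes of a library took 6.658% and 10.66% of its reads (exact permutation p = 0.007937).

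Library 5 of the exposed skin stood apart from the other 4. Krt71, a keratin of the inner root sheath of growing hair follicles, had counts of 18.2, 11.8, 106172, 15.2 and 182 in exposed skin and 22.2, 26.1, 70.5, 14.7 and 16.5 in unexposed skin. The 22 hair shaft genes took 0.9704% of the reads of library 5, against at most 0.004789% in any unexposed library. The pigment gene Tyrp1 had 40.3, 67.6, 11871, 107 and 127 in exposed skin and 18.7, 43.2, 63.6, 35.4 and 27.1 in unexposed skin. Library 5 was thus the only one of the 10 with hair shaft, root sheath and pigment genes at high counts, and it also had the lowest score of the 5 exposed libraries in 42 of the 56 gene lists. A score averages the log2 values of the genes in a list, after each gene was centred. The part of hair follicles in the other results of library 5 was not tested, so counts that change without it are given both ways.

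A single dose changed a large part of the transcriptome. Of 19170 genes tested, 4097 were called (21.4%), 2039 higher (10.6%) and 2058 lower (10.7%), and the median difference over all genes was 0.02. Counts of called genes in the gene lists below are to be read beside these shares. No overlap between the 5 exposed and 5 unexposed libraries was found for 1795 genes that were higher in exposed skin (9.36%) and 1899 that were lower (9.91%). Without library 5, 2023 were called higher and 2038 lower, and with sample quality weights, which count libraries far from the fit less, 3980 and 3804. By log2 difference, among called genes without overlap whose higher group averaged 100 or more, Il24, Cxcl5 and Saa3 rose most and Pyy, Kcnj16 and Lce1m fell most. By mean normalised reads, the called genes with the largest gains were the keratin genes Krt16, Krt17 and Krt6a, followed by Hp and Krt6b, and those with the largest losses were Krt10, Lor and Krt77, which build the upper epidermal layers. The 23 late differentiation genes took 1.176 ± 0.4937% of reads in exposed skin and 4.026 ± 1.212% in unexposed skin (SD, n = 5 each), and the 5 stress keratin genes 0.8567 ± 0.2453% and 0.2514 ± 0.08238%.

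**Figure D1:**
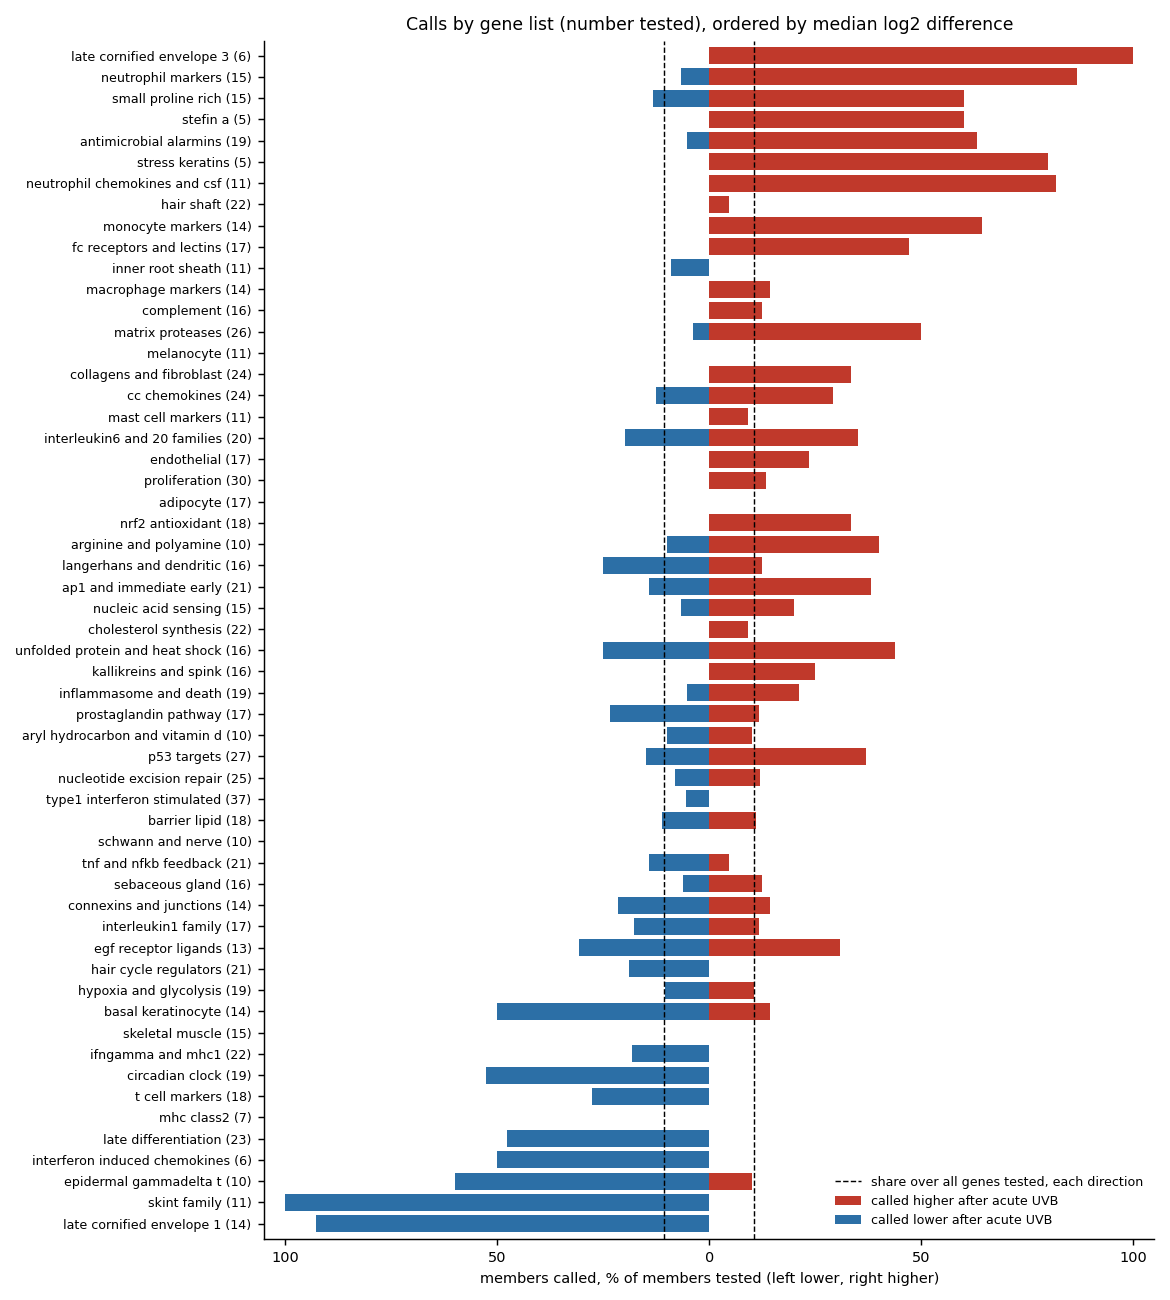
Members called higher (bars to the right) and lower (bars to the left) in exposed against unexposed NZM skin, as a percent of the members tested, for each of the 56 gene lists, with the number tested in brackets and dashed lines at the share over all genes. The 6 late cornified envelope 3 genes were all called higher and 13 of the 14 late cornified envelope 1 genes were called lower.

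The epidermal differentiation complex split into blocks that moved in opposite directions. This cluster spans chr3:90511034-93564643 in GRCm38, 3053.61 kb from S100a1 to S100a10. Of its 66 genes tested, 19 rose and 22 fell (62.1% called, against 21.4% of all genes), with a median of 0.05. All 10 small proline-rich genes from Sprr2d to Sprr3, over 119.581 kb and with the pseudogene Sprr2j-ps counted, rose with a median of 5.43. That stretch leaves out Sprr2a1 and Sprr2a2, which fell. From Sprr2a1 to Sprr3, over 242.922 kb, 10 of 14 genes tested rose and 2 fell (median 4.99). In the next block, 231.206 kb from Lce6a to Lce1l, 14 of 15 fell and none rose, with a median of -3.05. Past it, all 6 late cornified envelope 3 genes rose over 68.14 kb (median 4.97). Lce1m, the first gene after these, lies 24.384 kb further on and fell.

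Lce3d, of the envelope genes known to be induced when the skin barrier is broken, had counts of 789, 924, 389.6, 801 and 577 in exposed skin and 1.17, 5.02, 3.47, 13.4 and 16.5 in unexposed skin. Its log2 difference was 6.61 ± 0.63, adjusted p = 5.86e-09. Every exposed library stood far above every unexposed one, with library 5 the lowest of the exposed. Lce3b had 201, 265, 103, 115 and 159 in exposed skin and 0, 0, 0, 12.2 and 8.73 in unexposed skin (5.92 ± 1.003, adjusted p = 4.08e-05). Lce3c, which already had reads in every unexposed library, had 1037, 1187, 522, 1037 and 884 in exposed skin and 22.2, 28.1, 34.7, 149 and 137 in unexposed skin (4.04 ± 0.63, adjusted p = 1.47e-05). Libraries 34 and 35 had the highest counts of the unexposed group for both genes, and none reached the exposed range.

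The constitutive late cornified envelope genes went the other way. Lce1m, a component of the normal envelope, had 237, 2578, 1136, 883 and 4223 in exposed skin, against 36339, 44378, 48515, 45953 and 65891 in unexposed skin. Its log2 difference was -5.29 ± 0.72, adjusted p = 1.95e-06. Library 47 had the highest exposed count, and it was still far below the lowest unexposed one. Of the 14 genes of the group tested, 13 fell and none rose, with a median of -3.08. The near-identical pair Lce1a1 and Lce1a2 fell by 3.12 and 3.58 log2 units, values that are uncertain because reads of such copies can be assigned to either. Lce1d had 252, 923, 467, 268 and 569 in exposed and 2869, 4018, 3424, 5209 and 5921 in unexposed skin (-3.23 ± 0.62, adjusted p = 0.000215), with library 1 lowest and library 3 highest among the exposed. The neighbouring Kprp, a keratinocyte proline-rich envelope protein, also fell (-2.85 ± 0.61, adjusted p = 0.000696).

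Small proline-rich proteins are cross-linked into the envelope as bridges, and their genes were among the steepest risers, although not as a whole family. Of 15 tested, the pseudogene not among them, 9 rose and 2 fell (median 3.66). Sprr1b had 8685, 11020.2, 3157, 5454 and 4976 in exposed skin and 10.5, 24.1, 79.8, 514 and 546 in unexposed skin (6.04 ± 0.88, adjusted p = 5.13e-06). Sprr2i had 479, 569.8, 161, 316 and 317 in exposed skin and 0, 3.01, 3.47, 2.44 and 17.5 in unexposed skin (6.37 ± 0.88, adjusted p = 2.18e-06). The unexposed counts of both genes were spread widely, yet no unexposed library reached the lowest exposed one. Sprr2k had no reads in the 5 unexposed libraries and 63.1, 92.7, 17.2, 62.5 and 64.7 in exposed skin, with library 5 lowest. Setting the unexposed group at a limit of 3 reads in all, Sprr2k was at least 91.4-fold higher in exposed skin. Sprr1a, whose count was already high without UVB, had 12087, 14765, 12798, 9059 and 6422 in exposed skin and 3920.2, 9685, 11967, 2544 and 5785 in unexposed skin, and the groups overlapped (0.86 ± 0.57, adjusted p = 0.307). At the other end of the family Sprr2a1 had 0, 7.07, 0, 2.40 and 3.65 in exposed and 19.8, 32.1, 109.8, 4.89 and 62.05 in unexposed skin (-3.55 ± 0.82, adjusted p = 0.00154). Its promoter is identical to that of Sprr2a2 over all bases compared, and the 2 genes cannot be separated with certainty in these counts. Both groups of counts overlapped for Sprr2a1 and for Sprr2a2 (-3.05 ± 0.78, adjusted p = 0.00417), and the adjusted p of Sprr2a2 was 0.0655 with edgeR and 0.0605 with DESeq2.

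Promoters of the complex are shown because genes that lie side by side moved in opposite directions. Each is the RefSeq sequence (GRCm38.p6) of up to 250 bases before the start of the gene, without bases that lie in an annotated exon, in lower case and 5′ to 3′ on the strand of the gene. Capitals mark TGANTCA, searched on both strands, a loose pattern for the site of AP-1 factors such as the product of Fosl1. N stands for any base, so a match need not be a site that AP-1 binds. The match reads TGAATCA in Sprr1b and TGAGTCA in Sprr2e and Sprr2i.
Sprr1b (chr3:92438790-92439029, minus strand): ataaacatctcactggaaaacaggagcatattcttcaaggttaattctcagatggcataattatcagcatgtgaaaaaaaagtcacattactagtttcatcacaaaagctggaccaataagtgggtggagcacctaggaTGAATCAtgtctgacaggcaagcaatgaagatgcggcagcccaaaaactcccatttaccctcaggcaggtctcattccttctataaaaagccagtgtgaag
Sprr2e (chr3:92351893-92352142, plus strand): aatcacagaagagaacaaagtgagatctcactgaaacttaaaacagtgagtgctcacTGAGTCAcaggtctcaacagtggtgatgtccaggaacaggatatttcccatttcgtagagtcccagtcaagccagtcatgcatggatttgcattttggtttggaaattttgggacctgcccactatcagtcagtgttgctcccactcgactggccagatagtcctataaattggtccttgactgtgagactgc
Sprr2i (chr3:92407741-92407990, plus strand): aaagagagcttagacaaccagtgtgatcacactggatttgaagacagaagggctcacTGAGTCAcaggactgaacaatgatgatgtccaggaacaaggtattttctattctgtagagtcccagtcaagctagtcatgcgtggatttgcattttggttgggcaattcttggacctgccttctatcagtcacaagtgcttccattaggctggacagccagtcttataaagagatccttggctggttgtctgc
Sprr2a1 (chr3:92215585-92215798, plus strand): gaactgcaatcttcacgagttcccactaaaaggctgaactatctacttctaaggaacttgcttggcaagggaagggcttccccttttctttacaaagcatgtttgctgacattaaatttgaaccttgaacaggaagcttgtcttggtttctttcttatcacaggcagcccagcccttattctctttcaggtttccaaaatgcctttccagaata
Lce3d (chr3:92957140-92957389, plus strand): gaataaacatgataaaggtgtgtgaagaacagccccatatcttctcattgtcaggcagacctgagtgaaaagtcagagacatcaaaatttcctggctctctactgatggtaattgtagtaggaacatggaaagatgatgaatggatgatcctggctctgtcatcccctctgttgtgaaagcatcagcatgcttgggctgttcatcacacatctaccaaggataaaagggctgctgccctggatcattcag

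The motif begins 111 bases before the start of Sprr1b and 193 bases before the start of both Sprr2e and Sprr2i. It occurred in 6.75% of the 32851 promoters in the table, in 9 of the 14 small proline-rich genes matched, in 0 of the 13 Lce1 genes matched and in 0 of the 6 Lce3 genes. Sprr2a1, which fell, and Lce3d, which rose, both lack these letters in the window shown. The windows of Sprr2e and Sprr2i carry the same base at 177 of 250 positions (70.8%), so those 2 matches are not independent. Sprr2b, Sprr2d, Sprr2f, Sprr2h and Sprr2k also have a match that begins 193 to 198 bases before the start. The Sprr2 matches therefore cannot be counted as independent of each other. Of the genes with the motif, Sprr1a and Sprr2b were not called and the others rose. Sprr3 rose without it. A match describes letters only and does not show that a factor was bound.

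The keratins changed in the same 2 directions. Krt16, a keratin of injured and fast-renewing epidermis, had 61514, 83800.4, 23540.2, 39909 and 46907 in exposed skin, against 2005, 5602, 4548, 3138 and 6049.6 in unexposed skin. Its log2 difference was 3.57 ± 0.71, adjusted p = 0.000337. Krt6b had 18601, 25510.5, 5826, 7085 and 10554 in exposed and 114, 217, 309, 238 and 737 in unexposed skin (5.43 ± 0.90, adjusted p = 2.91e-05), and Krt6a, its near copy, also rose (2.77 ± 0.42, adjusted p = 9.96e-06). The groups did not overlap for any of these 3 genes, and library 5 was the lowest exposed library for each. Krt17, also a hair follicle keratin, had 109699, 124484, 108645, 68357 and 76749 in exposed and 48470.3, 77304, 80730.2, 27565 and 45818 in unexposed skin, with overlap (0.87 ± 0.31, adjusted p = 0.0408, call lost without library 1, 3 or 5 or unexposed library 31, 34 or 35, adjusted p up to 0.155). Krt10, a keratin of the suprabasal layers, had 20674, 90616, 28918, 29254 and 62416 in exposed and 171488, 220428, 314996, 205754 and 339346 in unexposed skin (-2.61 ± 0.72, adjusted p = 0.00781). Its partner Krt1 had 6229, 69198, 24675, 9307 and 50484 and 59545, 80234, 109408, 136714 and 136087 in exposed and unexposed skin, overlapped, and missed the threshold (-2.19 ± 0.81, adjusted p = 0.0505), which it passed without library 3 (adjusted p = 0.0289) or library 47 (0.0374). Krt1 also passed with a pseudocount of 8 (adjusted p = 0.0495), a filter at 50 (0.0445), only the groups compared (0.0215) and sample quality weights (0.000797). Library 3 had the highest Krt10 and Krt1 counts of the exposed group and library 1 the lowest.

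**Figure D2:**
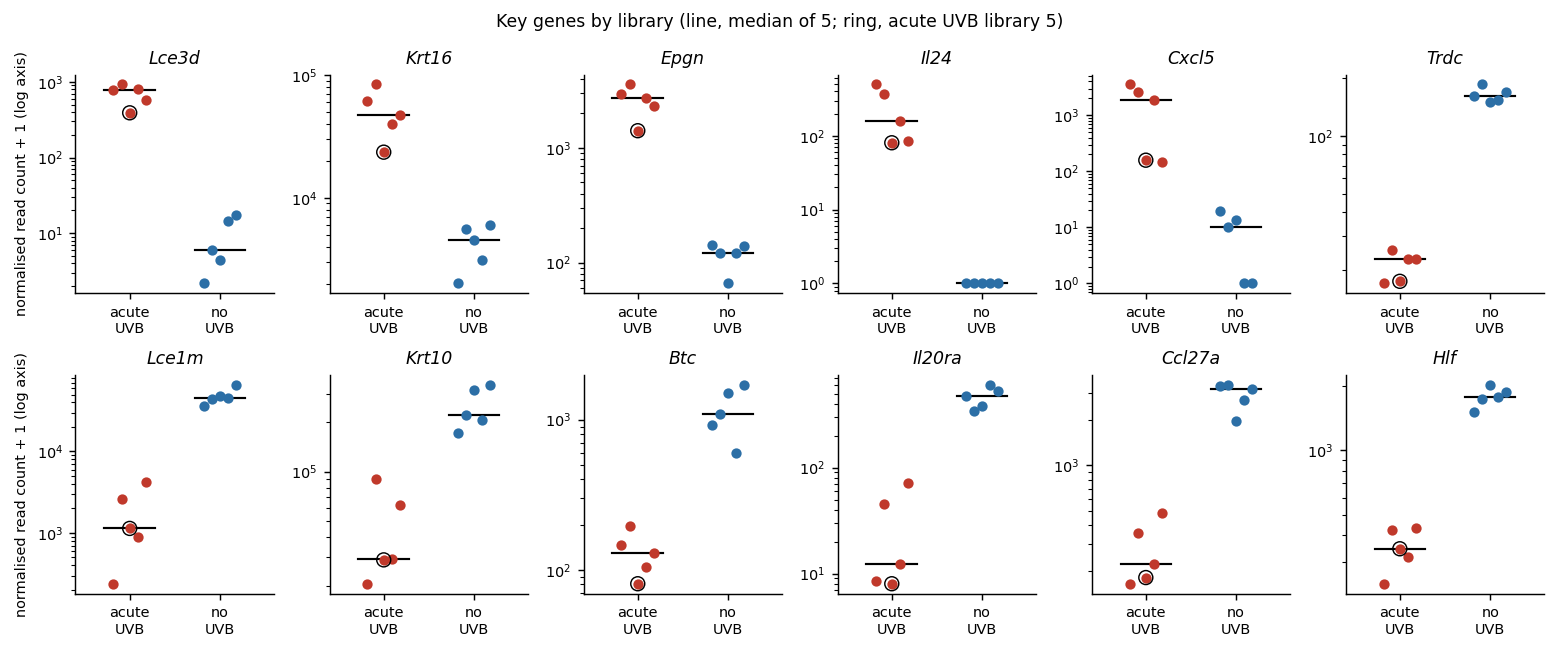
Normalised read count + 1 (log axis) of 12 genes in the 5 exposed and the 5 unexposed NZM libraries, 1 point per library, with a line at the median and a ring around library 5. Exposed and unexposed points separate in every panel, and Il24 was at 0 in all 5 unexposed libraries.

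Of 23 late differentiation genes, 11 fell and none rose (median -1.18). The number was 8 without library 5 and 7 without library 1. Lor, which encodes loricrin, had 14039, 54035, 31242, 20695 and 40004 in exposed and 130033, 225975, 291437, 173120.0 and 322385 in unexposed skin (-2.91 ± 0.70, adjusted p = 0.00251). Flg2, a filaggrin-like protein, fell as well (-2.96 ± 0.49, adjusted p = 3.35e-05), as did Dsg1a, a desmosomal cadherin of the upper layers (-1.84 ± 0.28, adjusted p = 9.77e-06). Filaggrin itself missed the threshold. Flg had 757, 4952, 5949, 1521 and 2696 in exposed and 1943, 4313, 7125, 10795 and 8529 in unexposed skin, and the groups overlapped (-1.18 ± 0.75, adjusted p = 0.277). Ivl, for involucrin, had 1639, 2570.2, 2244, 1202 and 1690.5 and 2192, 3309.8, 3879, 2363 and 5103 in exposed and unexposed skin (-0.83 ± 0.36, adjusted p = 0.0964), also with overlap. In the main test the loss was thus called for loricrin and the type II and type I keratins Krt77 (-3.51 ± 0.88, adjusted p = 0.0037) and Krt10 but for neither filaggrin nor involucrin, differences between genes that were not tested. With sample quality weights Flg (adjusted p = 0.0122) and Ivl (0.0036) were called lower. Ivl was also called lower with only the groups compared (adjusted p = 0.0344).

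In the basal layer 2 of 14 genes rose and 7 fell (median -0.53), with none called higher without library 1 or 3 and 1 without unexposed library 31, 32, 33 or 35. Trp63, the transcription factor of epidermal stem and basal cells, had 7362, 8255, 9309, 6899 and 6833 in exposed skin and 11631, 12288, 11941, 12763 and 11483 in unexposed skin (-0.65 ± 0.17, adjusted p = 0.0057). The hemidesmosome genes Dst (-1.31 ± 0.27, adjusted p = 0.000569) and Col17a1 (-1.26 ± 0.29, adjusted p = 0.00141) fell too, as did the basal keratins Krt5 (-1.08 ± 0.24, adjusted p = 0.0009) and Krt15 (-1.27 ± 0.36, adjusted p = 0.00968), whereas Krt14 had 163373, 180729, 93263, 107447 and 132917 and 114976, 147926, 163443, 272463 and 197636 in exposed and unexposed skin and was not called (-0.39 ± 0.33, adjusted p = 0.442). Quantile normalization ended the calls of Krt5 (adjusted p = 0.581), Krt15 (0.257) and Trp63 (0.0807), and that of Trp63 was also lost without both libraries 46 and 47 (0.0606). The gap junction genes separated: Gjb2, for connexin 26, had 9717, 8989, 17350.3, 2339 and 3568 in exposed and 322, 657, 846, 527 and 855 in unexposed skin (3.45 ± 0.72, adjusted p = 0.000573), and Gjb5, for connexin 31.1, had 308, 351, 722, 349 and 452 in exposed and 1700.4, 1979, 2597, 1618 and 2617 in unexposed skin (-2.31 ± 0.36, adjusted p = 1.19e-05). Library 5 held the highest exposed count of both connexins. Among adhesion genes the E-cadherin gene Cdh1 fell (-0.61 ± 0.14, adjusted p = 0.00184). Of the epidermal serine proteases, Klk6 had 7999, 9986, 2785, 3844 and 3035 in exposed and 425, 919, 992, 369 and 1065 in unexposed skin (2.81 ± 0.53, adjusted p = 0.000168), and Klk13 also rose (2.76 ± 0.52, adjusted p = 0.000167). Of the 16 kallikrein and Spink genes 4 rose (25%, against 21.4% of all genes called and 10.6% called higher). None fell, with 1 lower without library 3 or unexposed library 31.

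Keratinocyte growth factors of the epidermal growth factor family split by ligand. Of 13 ligand and receptor genes, 4 rose and 4 fell (median -0.42). Epgn, for epigen, had 2943, 3573, 1411, 2724 and 2314 in exposed skin and 140.0, 120.5, 64.7, 119.8 and 138 in unexposed skin, a log2 difference of 4.45 ± 0.54, adjusted p = 2.54e-07. Areg, for amphiregulin, had 1821, 1581, 749, 943 and 646 and 72.4, 113, 91.3, 25.7 and 72.7 in exposed and unexposed skin (3.94 ± 0.46, adjusted p = 1.32e-07). Hbegf, the heparin-binding ligand that drives wound closure, also rose (3.11 ± 0.42, adjusted p = 1.52e-06). The groups lay apart for all 3. Btc, for betacellulin, fell instead, with 145, 194, 79.6, 103 and 129 in exposed skin and 915, 1091, 1497, 601 and 1707 in unexposed skin (-3.12 ± 0.44, adjusted p = 3.29e-06). Ereg, for epiregulin, had 233, 458, 207, 273 and 272 in exposed and 242, 314, 312, 502 and 964 in unexposed skin with overlap (-0.56 ± 0.42, adjusted p = 0.373). Among receptors, Egfr was not called (0.12 ± 0.17, adjusted p = 0.664), and Erbb3, a receptor that signals through its partners, fell (-0.77 ± 0.15, adjusted p = 0.000343).

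**Figure D3:**
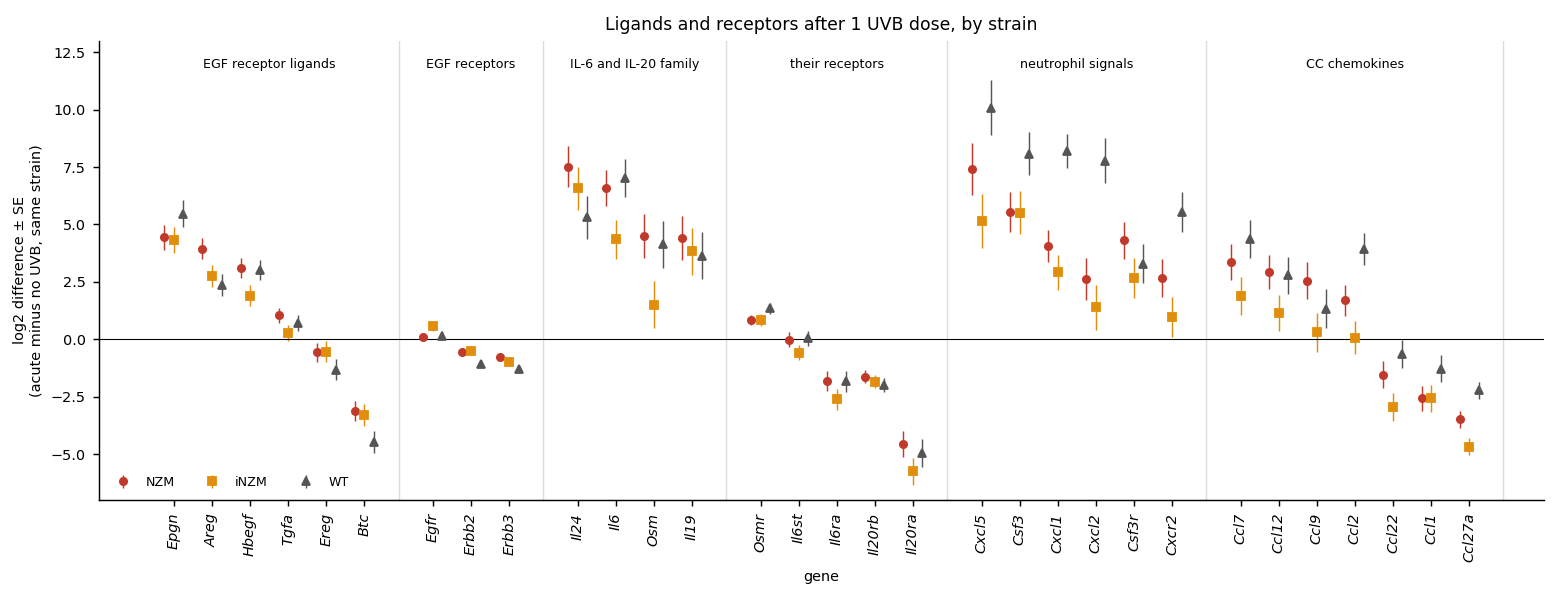
Log2 difference (exposed minus unexposed skin, bars show SE) of ligand and receptor genes in NZM, iNZM and WT. Epgn and Areg lie above 0 and Btc below 0 in all 3 strains, and no NZM difference shown was called different from WT or iNZM.

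In the interleukin 20 subfamily the ligands Il24 and Il19 rose and the receptor chains Il20ra and Il20rb fell. Il24, which signals to keratinocytes, had 496, 370.2, 79.6, 160.3 and 82.98 in exposed skin and no reads in the 5 unexposed libraries, at least 362-fold higher by the same limit (7.51 ± 0.89, adjusted p = 1.47e-07). Il19 had 291, 155, 72.6, 109.8 and 76.6 in exposed and 9.34, 12.05, 15.03, 0 and 1.94 in unexposed skin (4.42 ± 0.95, adjusted p = 0.000772). Il20 had 23.6, 12.6, 20.3, 2.40 and 60.2 and 19.8, 15.1, 34.7, 0 and 1.94 in exposed and unexposed skin and overlapped (1.08 ± 1.11, adjusted p = 0.538). Libraries 1 and 3 had the highest Il24 and Il19 counts of the exposed group. Il20ra, a chain of the receptors for these cytokines, had 7.60, 44.8, 7.03, 11.2 and 70.2 in exposed skin and 477, 341, 384, 604 and 531 in unexposed skin (-4.56 ± 0.56, adjusted p = 3.29e-07). Il20rb, the chain shared between these receptors, had 1802, 2132, 1172, 1999 and 2066 and 5159.6, 4996, 4967, 5883 and 6874 in exposed and unexposed skin (-1.62 ± 0.28, adjusted p = 5.13e-05). Il20ra and Il20rb lay wholly below the unexposed range. Il22ra1, a further receptor chain in the list, was not called (-0.73 ± 0.39, adjusted p = 0.185).

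In the interleukin 6 family the same split appeared for the name-giving pair. Il6 had 191, 115, 24.2, 389.6 and 37.4 in exposed skin, highest in library 46, and no reads in unexposed skin (6.59 ± 0.80, adjusted p = 2.25e-07). Its receptor chain Il6ra had 796, 1105, 309.9, 639.7 and 1066 in exposed and 2214, 2421, 2612, 2338 and 2956 in unexposed skin (-1.80 ± 0.44, adjusted p = 0.00251), and the shared signalling chain Il6st did not differ by more than its spread (-0.01 ± 0.31, adjusted p = 0.989). Osm, for oncostatin M, had 138, 46.4, 10.9, 93.8 and 26.4 and 1.17, 3.01, 0, 0 and 2.91 in exposed and unexposed skin (4.50 ± 0.97, adjusted p = 0.000814). Its receptor gene Osmr rose too (0.84 ± 0.23, adjusted p = 0.00838), so this pair did not split. Socs3, a feedback inhibitor of this pathway, had 3988, 3553, 1342, 6297 and 2277 in exposed and 909, 1044, 1166, 654 and 475 in unexposed skin, again highest in library 46 (1.92 ± 0.39, adjusted p = 0.000452). Over both families 7 of 20 genes rose and 4 fell (median 0.76).

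Of 17 interleukin 1 family genes, 2 rose and 3 fell (median -0.21, 29.4% called, against 21.4% of all genes). Of 21 tumour necrosis factor and NF-kB genes 1 rose and 3 fell (median -0.10, 19.05% called, near the 21.4% of all genes). Il1b had 1468, 584, 69.5, 632 and 150.4 in exposed and 61.9, 66.3, 40.5, 31.8 and 46.5 in unexposed skin (2.88 ± 0.86, adjusted p = 0.0134), but the call rested on library 1 (call lost without library 1, adjusted p 0.0626). The decoy receptor Il1r2 (-2.65 ± 0.44, adjusted p = 3.46e-05) and the epidermal cytokine Il18 (-2.05 ± 0.45, adjusted p = 0.00093) fell. Without library 1 none of the interleukin 1 family was called higher, and without library 3 or 46 or unexposed library 32 or 33 only 1 was. In the NF-kB list 1 was called lower without library 1 and 2 higher without library 5. Tnf had 142, 70.7, 14.1, 48.1 and 58.4 and 52.5, 45.2, 34.7, 68.4 and 67.9 in exposed and unexposed skin and was not called (0.02 ± 0.44, adjusted p = 0.983). Nfkbia, the inhibitor that NF-kB induces against itself, had 6182, 5772, 4100.1, 7076 and 6599.7 in exposed skin and 13579.9, 15251, 11906, 8536 and 9897 in unexposed skin (-0.99 ± 0.26, adjusted p = 0.00545). Bcl3, another member of the inhibitor family that acts in the nucleus, rose (2.68 ± 0.46, adjusted p = 4.44e-05). Among AP-1 genes, Fosl1 had 1197, 1429.7, 536, 1405 and 965 in exposed and 51.4, 28.1, 67.1, 81.9 and 84.3 in unexposed skin (4.14 ± 0.50, adjusted p = 2.31e-07), and Junb rose (1.16 ± 0.24, adjusted p = 0.000443). The immediate early genes Fos (-0.63 ± 0.64, adjusted p = 0.534), Jun (-0.01 ± 0.14, adjusted p = 0.972) and Egr1 (0.24 ± 0.39, adjusted p = 0.705) were not called, and 8 of the 21 genes of that list rose and 3 fell, with 1 lower without unexposed library 32. Klf4, a transcription factor of the barrier, fell (-1.04 ± 0.23, adjusted p = 0.0009).

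Prostaglandin genes moved in both directions, and the cyclooxygenase genes Ptgs2 and Ptgs1 moved in opposite ones. Ptgs2, the inducible cyclooxygenase, had 694, 685, 283, 576 and 479.6 in exposed skin and 33.8, 20.1, 45.1, 115 and 91.1 in unexposed skin (3.33 ± 0.52, adjusted p = 1.38e-05). Hpgds, the synthase of prostaglandin D2, had 596, 880.3, 178, 382 and 988 in exposed and 1867, 1739, 2154, 2521 and 2992 in unexposed skin (-2.11 ± 0.40, adjusted p = 0.000175). Hpgd, the enzyme that inactivates prostaglandins, fell (-1.33 ± 0.27, adjusted p = 0.000511), and so did Pla2g4a, the phospholipase that frees their precursor (-1.20 ± 0.18, adjusted p = 6.55e-06). No exposed library overlapped an unexposed one for these 4 genes. Ptgs1, the other cyclooxygenase, averaged 1246 in exposed and 3121 in unexposed skin and fell (-1.42 ± 0.43, adjusted p = 0.0165). Ptgs2 averaged 544 and 61.0. Of the 17 genes listed, 2 rose and 4 fell (35.3% called, against 21.4% of all genes), with 4 called higher without library 5.

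Signals that recruit neutrophils rose. Of 11 genes of neutrophil chemokines, growth factors and receptors, 9 rose and none fell (median 2.67), with 5 called higher without library 1 or library 3. The receptor genes Cxcr2, Csf3r and Csf2rb were among those that rose. Cxcr2 and Csf3r are counted among the neutrophil markers as well. Cxcl5, a neutrophil chemokine of epithelia, had 3538, 2582, 157, 1845 and 149 in exposed skin and 18.7, 9.04, 12.7, 0 and 0 in unexposed skin (7.42 ± 1.12, adjusted p = 9.02e-06). Libraries 5 and 47 were far below libraries 1, 3 and 46 and still above every unexposed one. Cxcl1 had 3088, 1889.5, 592, 1855 and 967 and 120.2, 164, 69.4, 45.2 and 72.7 in exposed and unexposed skin (4.06 ± 0.71, adjusted p = 5.84e-05). Csf3, the granulocyte growth factor, had 149.7, 74.7, 14.1, 171 and 14.6 in exposed and 0, 1.004, 0, 0 and 0 in unexposed skin (5.55 ± 0.88, adjusted p = 1.61e-05), and its receptor Csf3r had 1691, 476, 30.4, 512 and 273 and 14.00, 9.04, 25.4, 31.8 and 7.76 (4.31 ± 0.81, adjusted p = 0.000151). Among Cxcl5, Cxcl1, Csf3 and Csf3r, library 5 lay within the unexposed range for Csf3r only.

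Markers of neutrophils rose in the same libraries. Of 15 tested, 13 rose and 1 fell (median 3.71), and 12 rose without library 5. Trem1, a receptor that amplifies myeloid activation, had 177, 95.9, 11.7, 123 and 10.9 in exposed skin and no reads in unexposed skin (5.65 ± 0.94, adjusted p = 3.09e-05). Clec4d and Clec4e, paired lectin receptors that sense microbes and dead cells, had 502, 255, 28.9, 149.9 and 41.03 and 609, 193, 12.5, 207 and 41.9 in exposed skin, against 0, 4.02, 0, 0 and 1.94 and 2.33, 2.01, 0, 1.22 and 0 in unexposed skin. Their log2 differences were 6.12 ± 0.94, adjusted p = 1.16e-05 and 5.85 ± 1.02, adjusted p = 5.93e-05. Library 1 was the highest and library 5 or 47 the lowest for each. The neutrophil genes Ly6g, Ngp and Ltf were too low to be tested. Ly6g had no reads in the 5 unexposed and 3 of the 5 exposed libraries and reached 8.65 at most. The list also holds S100a8 (4.75 ± 0.77, adjusted p = 2.22e-05) and Lcn2 (3.32 ± 0.68, adjusted p = 0.000436), which keratinocytes make too, and Il1r2 was its faller.

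The monocyte chemokine genes Ccl7 and Ccl12 rose. Ccl7 had 1859, 1149.9, 262, 1867 and 669 in exposed and 66.5, 95.4, 112, 81.9 and 101 in unexposed skin (3.36 ± 0.77, adjusted p = 0.00159), and Ccl12 had 154, 99.03, 14.8, 51.3 and 82.98 and 10.5, 8.03, 9.25, 8.55 and 2.91 (2.95 ± 0.75, adjusted p = 0.00387), with no overlap for either. Ccl27a, which brings T cells that home to the epidermis, fell, with 163, 353, 179, 219.6 and 483 in exposed skin and 3359, 3419, 1968, 2712 and 3229 in unexposed skin (-3.49 ± 0.36, adjusted p = 1.48e-08). The lowest unexposed count of Ccl27a was far above the highest exposed one. Over 24 CC chemokine and receptor genes 7 rose and 3 fell (median 1.14), with 4 called higher without library 1 and 11 without library 5. Of 14 monocyte markers 9 rose and none fell (median 2.11), with 2 to 5 called higher without library 1, 3, 46, 47 or unexposed library 33. Fcgr1, a high-affinity antibody receptor of monocytes and macrophages, had 535, 400.1, 62.5, 230.1 and 526 in exposed and 36.2, 15.1, 34.7, 65.99 and 32.96 in unexposed skin (3.01 ± 0.79, adjusted p = 0.00516), and library 5 lay inside the unexposed range. Msr1, a scavenger receptor, had 709.7, 528, 50.7, 345 and 248 and 17.5, 18.1, 17.3, 31.8 and 21.3 in exposed and unexposed skin without overlap (3.69 ± 0.78, adjusted p = 0.000675).

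Of 14 markers of resident macrophages 2 rose (14.3%, near the 10.6% of all genes) and none fell (median 1.58), with 6 called higher without library 5, 1 higher without library 1 or 3, and 1 lower without library 5 or 47 or unexposed library 32. Lyve1, of vessel-associated macrophages and lymphatic endothelium, had 1366, 1145, 321, 484 and 1081 in exposed skin and 60.7, 136, 193, 123 and 112 in unexposed skin (2.70 ± 0.80, adjusted p = 0.0126). Mrc1, the mannose receptor, had 3697, 3259, 621, 1816 and 3098 and 314, 479.9, 551, 386 and 308 in exposed and unexposed skin (2.41 ± 0.76, adjusted p = 0.0206, call lost without library 1 or 3, adjusted p up to 0.0594). Adgre1, which encodes F4/80, overlapped between the groups, with 577, 389.8, 61.7, 214 and 672 in exposed and 249, 219.9, 294, 211 and 217 in unexposed skin (0.29 ± 0.87, adjusted p = 0.856). Of 16 complement genes 2 rose (12.5%, near the 10.6% of all genes called higher). Without library 5, 7 were called higher. None was without library 1, 3 or 47 or unexposed library 31 or 33, and 1 was without library 46 or unexposed library 32 or 35. C1qa had 4544, 4042, 995, 2159 and 8969 and 779.6, 937, 942, 1594 and 1364 in exposed and unexposed skin, highest in library 47 and within the unexposed range in library 5 (1.58 ± 0.80, adjusted p = 0.161). Of 17 endothelial genes 4 rose (23.5%, against 21.4% of all genes called and 10.6% called higher). Leaving out any of libraries 1, 3, 46 and 47 or unexposed libraries 31, 33, 34 and 35 left 1 or 2 called. Sele, the selectin by which inflamed vessels catch leukocytes, had 310.0, 272, 85.9, 716 and 231 in exposed and 12.8, 42.2, 65.9, 31.8 and 67.9 in unexposed skin without overlap (2.75 ± 0.73, adjusted p = 0.00562), a call lost without both libraries 46 and 47 (adjusted p = 0.053).

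**Figure D4:**
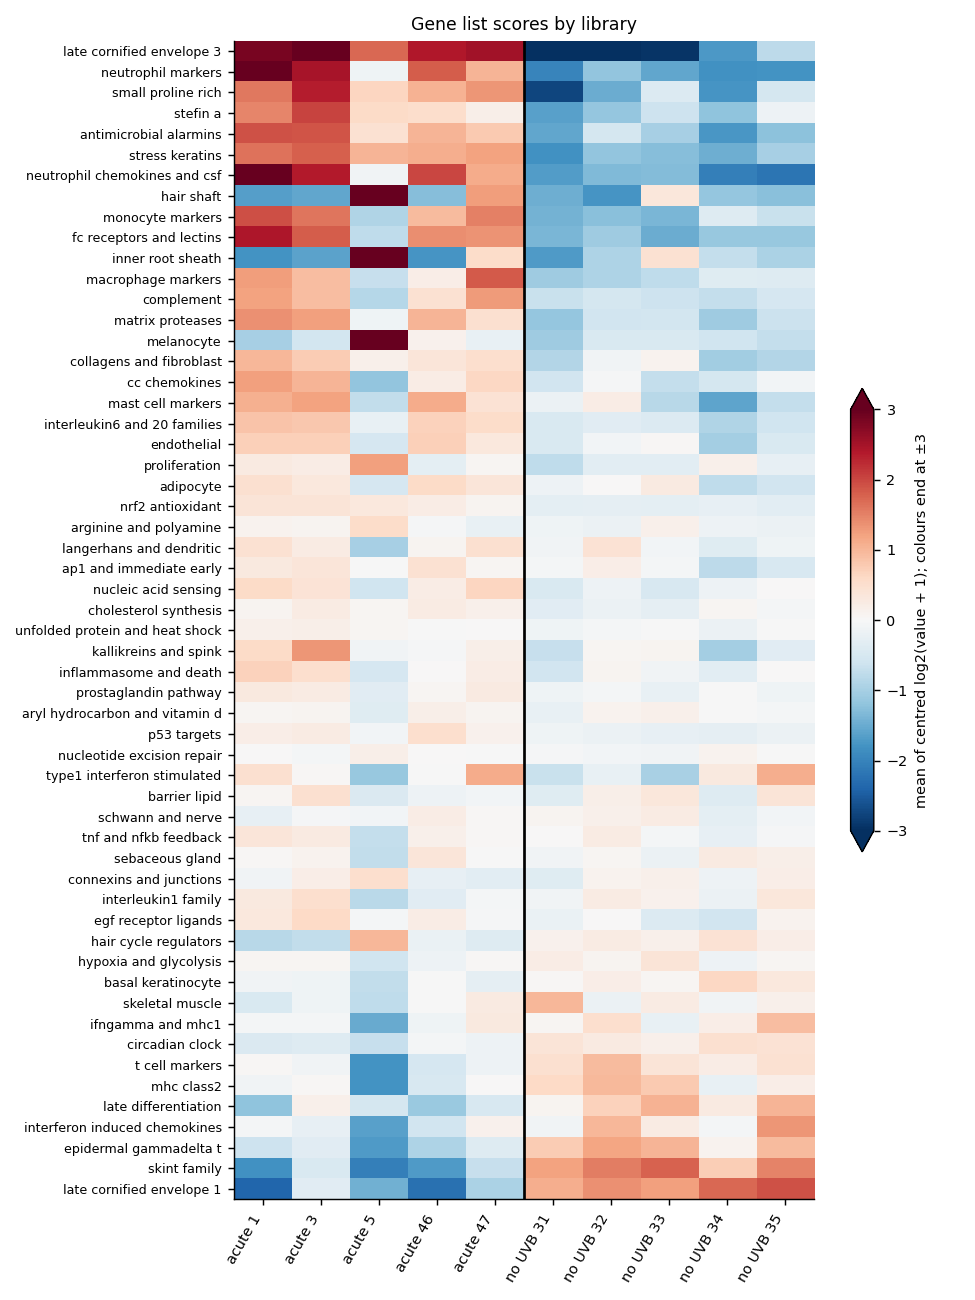
Score of each of the 56 gene lists (rows) in each NZM library (columns, exposed left of the black line and unexposed right of it), as colour. The score is the mean over the genes of a list of log2(value + 1), each centred on its mean, and colours end at ±3. The hair shaft, inner root sheath and melanocyte lists are darkest red in library 5, and the late cornified envelope 1, Skint and epidermal T cell lists are lower in all 5 exposed libraries than in any unexposed one.

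Of the 16 Langerhans and dendritic cell genes 2 rose and 4 fell (37.5% called, against 21.4% of all genes). With 11 of 16 differences above 0 (median 0.37), the called fallers included Cd207, Epcam and Itgae. Cd207, for langerin of Langerhans cells, had 325, 476, 116, 308 and 569.9 in exposed skin, against 1425, 1570.1, 1272, 1112 and 1083 in unexposed skin (-2.01 ± 0.50, adjusted p = 0.003). Epcam, also made by keratinocytes of the follicle, had 5349.9, 6248, 6572, 5059.7 and 5381 and 8942, 12658, 11672, 6983 and 9665 (-0.78 ± 0.17, adjusted p = 0.00119), and Itgae, for CD103, had 67.6, 84.1, 35.1, 61.7 and 90.3 and 191, 356, 176, 138 and 144 (-1.53 ± 0.43, adjusted p = 0.00941). The groups stayed apart for all 3, with library 5 lowest for Cd207 and Itgae but highest for Epcam. Fscn1, of migrating mature dendritic cells, rose (1.90 ± 0.44, adjusted p = 0.00173). Class II genes were not called in any of 7 cases (median -1.01). Cd74, their invariant chain, had 8926, 8963, 2612, 6015 and 7805 in exposed and 13288, 18600.2, 18009, 7671 and 10941 in unexposed skin with overlap (-1.05 ± 0.55, adjusted p = 0.178).

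Dendritic epidermal T cells carry a gamma-delta receptor and need Skint proteins of keratinocytes to develop. Trdc, the constant region of the delta chain, had 15.96, 24.4, 16.4, 21.6 and 21.9 in exposed skin and 159.9, 185, 150.3, 154 and 168 in unexposed skin (-2.98 ± 0.57, adjusted p = 0.000214). The variable segment Tcrg-V5, used by these cells, had 0.76, 3.93, 0.781, 3.21 and 2.74 and 30.3, 37.1, 62.4, 11.00 and 23.3 in exposed and unexposed skin (-3.29 ± 0.51, adjusted p = 1.29e-05). Cd3g, a chain of the receptor complex in all T cells, had 110.2, 169, 35.1, 96.99 and 178 and 689, 869, 681, 656 and 558 (-2.72 ± 0.47, adjusted p = 5.94e-05). No library overlapped for these genes. Of 10 genes of the epidermal T cells 1 rose and 6 fell (median -2.28), and of 18 general T cell genes none rose and 5 fell (median -0.92). The 5 are 27.8% of that list, against 21.4% of all genes called and 10.7% called lower. Cd4 (0.25 ± 0.71, adjusted p = 0.847) and Cd8a (-0.57 ± 0.76, adjusted p = 0.644) were not called. All 11 Skint genes fell (median -2.61), 10 of them without library 5. Skint9 had 95.7, 648, 127, 119 and 464 in exposed skin and 2873, 3925, 4266, 2156 and 3721 in unexposed skin (-3.94 ± 0.51, adjusted p = 8.64e-07). Skint1, the member required for these T cells to be selected, had 153, 413, 145, 155 and 279.9 and 1073, 1609, 1591, 973 and 1191 (-2.59 ± 0.40, adjusted p = 1.06e-05). Library 3 had the highest exposed count of both. Skint genes are near copies of each other, so the split between them is uncertain.

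Interferon-stimulated genes varied between libraries more than between regimens. Of 37 tested, none rose and 2 fell (median 0.05, 5.41% called, against 21.4% of all genes). There was 1 higher without library 5 or unexposed library 34 and 1 lower without library 5 or unexposed library 35. Isg15, a ubiquitin-like protein, had 324, 309.7, 249, 284 and 485 in exposed skin and 148, 393, 143, 434 and 1604 in unexposed skin (-0.15 ± 0.58, adjusted p = 0.887). Unexposed libraries 31 and 33 were lowest and library 35 highest, and the exposed libraries lay between. Irf7, a transcription factor of the interferon response, had 915, 534, 426, 713 and 3723 in exposed and 558, 474, 372, 2461 and 2298 in unexposed skin (0.00 ± 0.58, adjusted p = 0.999). Library 47 and unexposed libraries 34 and 35 stood well above the others. The median SD of the 37 genes was 0.8304 log2 units in exposed and 0.895 in unexposed skin, against 0.3691 and 0.2909 over all genes tested. Cxcl9, which interferon gamma induces, had 93.5, 112, 32.8, 96.2 and 216 in exposed and 259, 588, 175, 364 and 1059 in unexposed skin with overlap (-2.08 ± 0.59, adjusted p = 0.00971). Cxcl10 had 60.03, 84.1, 28.9, 35.3 and 69.3 and 78.2, 243, 94.8, 122 and 399 (-1.57 ± 0.54, adjusted p = 0.0317, call lost without library 46 or 5 or unexposed library 32 or 35, adjusted p up to 0.12). Of 22 interferon gamma and class I genes 4 fell and none rose (median -0.76), with 2 lower without library 5. The 4 are 18.2% of the list, against 21.4% of all genes called and 10.7% called lower. Tmem173, for the DNA sensor adaptor STING, rose, with 639, 559.6, 284, 676 and 425 and 93.4, 176, 117, 68.4 and 95.01 in exposed and unexposed skin (2.23 ± 0.42, adjusted p = 0.000151).

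Of 27 targets of p53, the factor that halts the cell cycle after DNA damage, 10 rose and 4 fell (median 0.07). Tnfrsf10b, a death receptor, had 704, 715, 354, 1087 and 636 in exposed skin and 118, 136, 154, 137 and 156 in unexposed skin (2.23 ± 0.26, adjusted p = 1.34e-07). Pmaip1, for the death protein Noxa, had 907, 958, 501, 1292 and 787 and 129.5, 207, 198, 273 and 251 (2.05 ± 0.25, adjusted p = 2.07e-07). Cdkn1a, the cell cycle inhibitor p21, had 7468, 9439, 6853, 10886 and 7192 and 3347, 4038, 5185, 2998 and 4811 (1.05 ± 0.22, adjusted p = 0.000482). Library 46 had the highest exposed count of all 3. Bax (1.002 ± 0.16, adjusted p = 2.79e-05) and Plk2 (1.75 ± 0.24, adjusted p = 1.59e-06) rose too. Sesn1, a stress sensor, fell (-1.23 ± 0.18, adjusted p = 5.92e-06). Of 25 genes of nucleotide excision repair, which removes UVB lesions, 3 rose and 2 fell (20% called, near the 21.4% of all genes). Those that fell were Xpc, which finds the lesion, with 706, 673, 877, 768 and 831 in exposed and 1518, 1277, 1364, 1638 and 1402 in unexposed skin (-0.90 ± 0.10, adjusted p = 1.15e-07), and Xpa, which checks it (-0.68 ± 0.13, adjusted p = 0.000203). Both had groups that did not overlap.

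Of 18 antioxidant genes 6 rose and none fell (median 0.51, 33.3% called, against 21.4% of all genes). Slc7a11, the cystine transporter, had 259.9, 274, 230.3, 76.2 and 102 in exposed and 16.3, 43.2, 49.7, 28.1 and 35.9 in unexposed skin (2.33 ± 0.44, adjusted p = 0.000176), and Nfe2l2, the factor NRF2 that drives this group, had 3463, 3594, 2415, 3048 and 2666 and 1770.4, 1719, 1801, 1758 and 1669 (0.78 ± 0.15, adjusted p = 0.000165). Hmox1 was not called (-0.08 ± 0.43, adjusted p = 0.918). The chaperone genes Hsp90aa1 (1.08 ± 0.18, adjusted p = 4.27e-05) and Hspa5 (0.75 ± 0.15, adjusted p = 0.000341) rose, with 7 of 16 unfolded protein and heat shock genes higher and 4 lower. In polyamine synthesis Odc1, its first enzyme, had 10982, 11614, 12918, 9499.7 and 7149 in exposed and 3494, 3502, 4973, 4341 and 3505 in unexposed skin (1.38 ± 0.36, adjusted p = 0.00449), Srm also rose (1.14 ± 0.20, adjusted p = 9.07e-05), and Arg1, the arginase that feeds it, fell (-1.94 ± 0.28, adjusted p = 5.64e-06). Library 5 had the highest exposed count of both Odc1 and Arg1. The necroptosis genes Ripk3 (1.62 ± 0.29, adjusted p = 0.000101) and Mlkl (1.43 ± 0.30, adjusted p = 0.000569) rose. Of 30 proliferation genes 4 rose (13.3%, near the 10.6% of all genes), and 2 without library 1, 3, 5 or 47 or unexposed library 31, 32, 33 or 35. Rrm2 (1.39 ± 0.26, adjusted p = 0.000135) and Ccne1 (1.43 ± 0.30, adjusted p = 0.000608) rose, and Mki67, with 2779, 2839, 6625, 1843 and 2298 in exposed and 1266, 1910.4, 1745, 3253 and 2153 in unexposed skin, was highest in library 5 and not called (0.58 ± 0.48, adjusted p = 0.432).

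Output genes of the circadian clock fell. Of 19 clock genes none rose and 10 fell (median -0.82), with 6 lower without library 1 or 5 or unexposed library 31, 32 or 35. Hlf, a clock-controlled transcription factor, had 236, 421, 345, 315 and 433 in exposed skin and 1506, 1744, 2029, 1787 and 1872 in unexposed skin (-2.37 ± 0.22, adjusted p = 4.93e-09). Its relatives Dbp (-1.47 ± 0.37, adjusted p = 0.00406) and Tef (-1.01 ± 0.27, adjusted p = 0.00568) fell, and so did Per1 and Cry2, which encode repressors of the clock (-1.45 ± 0.27, adjusted p = 0.000176 and -0.82 ± 0.23, adjusted p = 0.00806). Per1 had 733, 807, 902, 1736 and 1612 in exposed and 3456, 3438, 2180.4, 3081 and 2820.2 in unexposed skin. All exposed counts of Hlf and Per1 lay below all unexposed ones. The core activators Arntl (-0.26 ± 0.20, adjusted p = 0.369) and Clock (0.51 ± 0.21, adjusted p = 0.0756) were not called. Clock was called higher without library 5 (adjusted p = 0.0323), with edgeR (0.0486) and with DESeq2 (0.0442). It was also called higher with only the groups compared (adjusted p = 0.0338) and with sample quality weights (0.000243). The hour of biopsy is not given in the labels, and its part in these differences was not tested. The E-box CACGTG, which the activators bind, was found in 5 of the 16 clock genes matched and in 6.02% of the 32851 promoters. A gene was counted if any of its listed starts had the E-box, whereas the 6.02% is per start. Of the 12 clock genes with 1 listed start, 3 had it (Cry1, Ciart and Bhlhe41), and these were not called. Per1 and Tef, which fell, each have 2 listed starts. The Per1 window at 1 of its 2 listed starts is shown as an example, with the E-box in capitals, 166 bases before the start.
Per1 (chr11:69098699-69098947, plus strand): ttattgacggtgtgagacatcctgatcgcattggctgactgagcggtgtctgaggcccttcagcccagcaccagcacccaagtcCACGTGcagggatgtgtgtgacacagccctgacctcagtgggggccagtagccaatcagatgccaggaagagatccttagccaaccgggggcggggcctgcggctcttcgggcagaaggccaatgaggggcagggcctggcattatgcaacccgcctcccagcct

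Of 26 matrix protease and inhibitor genes 13 rose and 1 fell (median 1.36). Timp1, an inhibitor of metalloproteinases, had 1076, 966, 189.7, 945 and 394 in exposed skin and 2.33, 31.1, 32.4, 3.67 and 32.96 in unexposed skin (5.39 ± 0.75, adjusted p = 2.6e-06). Adamts4, an aggrecanase, had 435, 497, 166, 728 and 134 and 2.33, 2.01, 16.2, 1.22 and 10.7 (5.92 ± 0.71, adjusted p = 2.25e-07). Tnc, for tenascin C of healing wounds, had 6630.2, 5261, 3219, 6789 and 1835 and 398, 552, 459, 1277 and 961 (2.69 ± 0.49, adjusted p = 0.000118). Library 5 or 47 was the lowest exposed library for each, and no groups overlapped. Of 24 collagen and fibroblast genes 8 rose (33.3%, against 10.6% of all genes called higher) and 16 were not called. Without library 1 or 3 or unexposed library 31, 34 or 35, 3 to 5 were called higher. Pdgfra, the receptor that marks fibroblasts, rose (2.31 ± 0.65, adjusted p = 0.00927), and Col1a1 had 12426, 9886, 18504, 6410.4 and 10014 and 3075, 7739, 11424, 2345 and 2858 in exposed and unexposed skin with overlap (1.26 ± 0.62, adjusted p = 0.148). No gene was called among 17 of fat (1 without unexposed library 33), 15 of skeletal muscle or 10 of nerve, and Adipoq of fat cells, for example, had 1097, 1137, 623, 1032 and 989 in exposed and 811, 1101, 1504, 253 and 475 in unexposed skin (0.46 ± 0.64, adjusted p = 0.66). Of 16 sebaceous gland genes 2 rose and 1 fell (median -0.12). The share called, 18.75%, was near the 21.4% of all genes. Without library 1 or 3 or unexposed library 31, 32, 33 or 35, 1 was called higher. The faller was the desaturase Scd3, with 1056, 1419, 596, 3521 and 1954 in exposed and 13932, 14339, 8088, 15627 and 13620.3 in unexposed skin (-3.15 ± 0.65, adjusted p = 0.000468).

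Of 19 antimicrobial and alarmin genes 12 rose and 1 fell (median 2.77). Saa3 of that list, an acute-phase protein gene, had 5723, 4039.9, 322, 2662 and 846 in exposed and 10.5, 25.1, 16.2, 7.33 and 1.94 in unexposed skin (7.39 ± 0.87, adjusted p = 1.47e-07), and Hp of the same list, for haptoglobin, had 28185, 16889, 5525, 19602 and 10322 and 415, 931, 2364, 337 and 529 (4.32 ± 0.73, adjusted p = 3.6e-05). Other steep differences lay outside the lists. Fgf23, known as a hormone of bone that controls phosphate, had 198, 172, 9.37, 191 and 26.4 in exposed skin, and reads in 1 of 5 unexposed libraries (5.85 ± 1.05, adjusted p = 9.23e-05). Library 5 was again the lowest. Sh2d5, an adaptor protein gene, rose as well (5.997 ± 0.86, adjusted p = 4.16e-06). Kcnj16, a potassium channel, had 0.76, 26.7, 7.03, 3.21 and 39.2 in exposed skin and 899, 867, 920.2, 789 and 842 in unexposed skin (-6.55 ± 0.74, adjusted p = 1.03e-07). Its unexposed counts were close together and its exposed ones near 0. Pyy, for the gut hormone peptide YY, had reads in 1 of 5 exposed libraries, with 0, 0, 0, 0 and 43.8 in exposed and 239, 260.0, 1771, 80.7 and 687 in unexposed skin (-7.40 ± 0.94, adjusted p = 5.45e-07). Guca2a, for guanylin of the gut lining, fell (-4.70 ± 0.79, adjusted p = 3.42e-05). Clca3a2 and Clca1, of the calcium-activated chloride channel regulator family, fell by 4.24 and 5.10, and Fcgbp, a mucus protein gene, by 4.37 log2 units.

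Other genes with large falls were Mrgprb3 (-4.83 ± 0.73, adjusted p = 9.69e-06), Il12rb2 of the interleukin 12 receptor (-4.65 ± 0.64, adjusted p = 2.18e-06), Dab1 (-4.52 ± 0.83, adjusted p = 0.000114), Sema3d, a guidance cue (-4.39 ± 0.65, adjusted p = 6.52e-06), Apol7a (-4.46 ± 0.67, adjusted p = 8.37e-06) and Lama1, a laminin chain (-4.17 ± 0.56, adjusted p = 1.34e-06). In every one of these the 5 exposed libraries lay below the 5 unexposed ones. Il12rb2, for example, had 6.08, 35.4, 4.68, 8.02 and 27.4 in exposed and 308, 395, 437, 266 and 256 in unexposed skin. The opposite-strand transcript Mccc1os fell by 5.06, but its reads cannot be told apart from those of the gene on the other strand unless the counting used strand. Large losses of reads also came from Apoe, the lipid carrier, with 75575, 88393, 67950.1, 89748 and 110127 in exposed and 184511, 226605, 204633, 261649 and 219651 in unexposed skin (-1.36 ± 0.25, adjusted p = 0.000128), and Eef1a1, a translation factor (-0.65 ± 0.18, adjusted p = 0.00779). The call of Apoe was lost under quantile normalization (adjusted p = 0.0543), where the Eef1a1 difference took the other sign (0.27, adjusted p = 0.619). Other genes with large gains in mean reads were Ncl, for nucleolin (0.55 ± 0.18, adjusted p = 0.0242, call lost without library 3 or 5 or unexposed library 31, adjusted p up to 0.0766), Fabp5, an epidermal lipid carrier (0.76 ± 0.27, adjusted p = 0.0407, call lost without library 1 or 3 or unexposed library 31, 32, 33 or 35, adjusted p up to 0.101), and S100a9, the partner of S100a8 (4.26 ± 0.84, adjusted p = 0.000274).

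The response of NZM skin was then set against that of the other strains, each with its own unexposed skin. Against WT, 22 of 19170 genes were called (0.115%), 10 with a more positive (0.0522%) and 12 with a more negative difference in NZM (0.0626%), and 1947 had an unadjusted p under 0.05. Against iNZM 1 was called (0.00522%) and 1215 had an unadjusted p under 0.05. That gene, the predicted transcript RP24-208K8.1, had low counts in every exposed and unexposed NZM library. Tests of a difference between differences carry a larger error. In simulated data 76% of genes changed 4-fold in NZM alone were recovered against WT, compared with 92% for NZM exposed against unexposed skin. The changed genes were drawn from those with higher mean counts, and no simulated library was set apart from its group. These shares therefore do not cover genes with low counts or the effect of an outlying library.

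Tmem177, a mitochondrial membrane protein gene, had 219 ± 33.2 in exposed and 1003 ± 173 in unexposed NZM skin (SD, n = 5 each). In WT it had 207 ± 26.6 in exposed (n = 5) and 229 ± 22.5 in unexposed skin (n = 4). The difference between the responses was NZM minus WT -2.04 ± 0.30, adjusted p = 0.000454, and iNZM gave -1.95 ± 0.22 for exposed minus unexposed. Unexposed NZM skin thus had several times the WT count, and exposed NZM skin about the WT count. Nfkbiz, a nuclear regulator of NF-kB targets, had 1512 ± 455 in exposed and 2259 ± 782 in unexposed NZM skin, against 1059 ± 239 and 265 ± 81.4 in exposed and unexposed WT skin (NZM minus WT -2.59 ± 0.45, adjusted p = 0.00441). It was the unexposed libraries that lay furthest apart between these strains.

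Hsd17b14, a steroid dehydrogenase, was not called in NZM, with 372 ± 79.8 in exposed and 301 ± 71.7 in unexposed skin, and had 32.2 ± 6.65 and 147 ± 46.4 in exposed and unexposed WT skin (NZM minus WT 2.43 ± 0.38, adjusted p = 0.000844). Fam111a, a protease gene, likewise was not called in NZM and had lower counts in exposed than in unexposed WT skin (NZM minus WT 1.68 ± 0.28, adjusted p = 0.00377). Pitpnm3 rose in NZM (1.62 ± 0.27, adjusted p = 3.07e-05) and gave -0.42 ± 0.29 in WT (NZM minus WT 2.04 ± 0.39, adjusted p = 0.0127). Qpct, a glutaminyl cyclase, rose in NZM (0.89 ± 0.30, adjusted p = 0.0275, call lost without library 1, 3 or 47 or unexposed library 34 or 35, adjusted p up to 0.0822) and gave -1.28 ± 0.31 in WT (NZM minus WT 2.17 ± 0.43, adjusted p = 0.0181). Without unexposed WT library 45 the differences between the responses missed the threshold for Pitpnm3 (adjusted p = 0.0527) and Qpct (0.0828). Skint9 (NZM minus WT -3.94 ± 0.75, adjusted p = 0.0119) and Skint4 (NZM minus WT -2.52 ± 0.45, adjusted p = 0.00624) had no reads in any WT library, so for them the value is the NZM fall alone, and neither edgeR nor DESeq2 called either of them (DESeq2 adjusted p = 0.284 for Skint9 and 0.4313 for Skint4).

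Calls for the other named differences from WT lay near the threshold. Mt1, a metallothionein, had 7354 ± 957 in exposed and 3306 ± 906 in unexposed NZM skin, against 25172 ± 5601 and 2925 ± 1216 in exposed and unexposed WT skin (NZM minus WT -1.99 ± 0.42, adjusted p = 0.03). The keratin gene Krt7 rose by 1.37 ± 0.35 in NZM and gave 3.90 ± 0.37 in WT (NZM minus WT -2.53 ± 0.51, adjusted p = 0.0215). The zinc transporter gene Slc30a2 fell in NZM (-1.002 ± 0.29) and gave 0.997 ± 0.31 in WT. Emid1 and L3hypdh rose in NZM (1.32 ± 0.22 and 1.11 ± 0.17), and gave -0.28 ± 0.24 and -0.11 ± 0.19 in WT. The cell polarity gene Mpp7 and the protease gene Prss22 were not called in NZM (0.17 ± 0.28 and 0.48 ± 0.25) and gave -1.82 ± 0.30 and 2.24 ± 0.27 in WT. For each of these 7 genes the difference between the responses was called over all libraries, and the call was lost in 5 to 9 of the 19 fits that left out 1 library, among them exposed WT library 50 for all 7, with adjusted p up to 0.12. The differences kept their sign. Without library 50 NZM minus WT was -1.91 for Mt1, -2.43 for Krt7, -1.84 for Slc30a2, 1.52 for Emid1, 1.203 for L3hypdh, 1.75 for Mpp7 and -1.63 for Prss22, against -1.99, -2.53, -1.999, 1.5996, 1.22, 1.99 and -1.76 over all libraries.

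For the neutrophil chemokine gene Cxcl1 the NZM difference was 4.06 ± 0.71 and the WT difference 8.21 ± 0.75, yet the difference between the responses missed the threshold (NZM minus WT -4.14 ± 1.03, adjusted p = 0.0894). The macrophage genes Mrc1 and Lyve1, which rose in NZM, had WT differences of 0.27 ± 0.81 and 0.28 ± 0.84, and their interactions missed it too (NZM minus WT 2.14 ± 1.11, adjusted p = 0.518 and NZM minus WT 2.42 ± 1.16, adjusted p = 0.476).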

How the data were processed

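The deposited table holds 1 signal per gene and library, a gene read count that the authors divided by 1 size factor per library. The submitters' processing notes name STAR, HTSeq, DESeq2 and build mm10, and their versions and the annotation are not given in the sources used here. Per the labels, poly-A libraries were read as pairs of 151 bases. All values of a library were whole multiples of its smallest step (100% within 0.01), so whole reads were recovered from 23256 genes in 43 libraries.

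Libraries were grouped by the strain and regimen in their labels. The filter kept 19170 genes, those reaching a count of 10 or more in no fewer than 4 libraries. The main test was limma-trend 3.58.1 (R 4.3.3) on log2(value + 1). All 43 libraries entered, each of the 9 groups had its own mean, and two-sided p were adjusted by Benjamini-Hochberg at 0.05. A pseudocount of 1 understates differences of genes with low counts. The NZM response was set against that of WT and of iNZM by interaction contrasts. Depths were compared by exact permutation. A group without reads was given a floor of 3 reads over the group, which covers counting error only. In simulated data with 200 changed genes of the 19170, limma recovered 92% of 4-fold and 65% of 2-fold changes in the NZM comparison, with 12 false calls. Genes with low mean counts were not among those changed. No 2 NZM libraries of a group agreed within sampling noise (chi-square per gene at least 19.23).

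The members, the 56 gene lists (919 genes, 896 tested) and the rule for named genes were chosen with earlier results of these data known. The rule takes the 15 largest differences in each direction among called genes whose groups did not overlap and whose higher group averaged 100 or more, the 10 largest gains and losses of reads, the 4 lowest adjusted p at most of a list described, members whose role the text gives, and up to 8 called genes in each direction of each interaction. Krt71 and Tyrp1 are named as markers of library 5, and RP24-208K8.1, a predicted model outside the rule, was named after its values were seen. Promoters are from RefSeq (GRCm38.p6), with exons from GENCODE on GRCm38 left out.

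Alternatives were edgeR 4.0.16 and DESeq2 1.42.0 on recovered reads, TMM or quantile scaling, a filter at 50 or none, pseudocounts of 8 and 0.5, sample quality weights, a fit of the compared groups alone, a term for libraries numbered 46 and above, a threshold of 0.01, and leaving out each library or both libraries 46 and 47. Tables and plots used Python 3.11.15, pandas 2.3.3, numpy 2.4.6, scipy 1.17.1 and matplotlib 3.10.9.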

Additional observations from a re-analysis of the deposited data

Results flagged for a closer look

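In 18 of 374 sets of 5 libraries (187 genes, 2 groups), the highest or lowest log2 value stood apart from the other 4 by more than 0.71 of the whole range. Chance flags about 1 in 20 such sets, so this number is near what chance gives. In exposed skin, library 5 stood apart for Adipoq (622.97), Il20rb (1172), Nfkbiz (763), Sprr2k (17.2) and the pigment gene Tyrp1 (11871). It was the lowest of its group in all of these but Tyrp1, where it was the highest. Library 47 was the highest for Pyy (43.8), a gene without reads in the other 4 exposed libraries, and the lowest for Egr1 (3029.96).

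In unexposed skin, library 35 was the highest for Apol7a (899.7), Fgf23 (1.94), Sprr2j-ps (1.94) and Sprr3 (0.969) and the lowest for Ccl12 (2.91). Library 34 was the highest for Clock (929.95) and the lowest for Junb (3127). Library 33 was the lowest for Epgn (64.7) and Scd3 (8088). Library 32 was the highest for Csf3 (1.00), and library 31 stood apart for Fscn1 (359). The few reads behind Fgf23, Sprr2j-ps, Sprr3 and Csf3 in unexposed skin are too few to be read as a difference between libraries.

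The response of NZM skin differed from that of WT skin by the interaction test for 15 named genes. On the log2 scale it was more positive in NZM for Hsd17b14 (2.43), Qpct (2.17), Pitpnm3 (2.04), Mpp7 (1.99), Fam111a (1.68), Emid1 (1.5996) and L3hypdh (1.22). It was more negative for Skint9 (-3.94), Nfkbiz (-2.59), Krt7 (-2.53), Skint4 (-2.52), Tmem177 (-2.04), Slc30a2 (-1.999), Mt1 (-1.99) and Prss22 (-1.76). Skint9 and Skint4 had no reads in any WT library, so their values restate the NZM fall, and neither edgeR nor DESeq2 called them. Against iNZM the predicted transcript RP24-208K8.1 differed (-5.10).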

How the results depend on the processing

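No paired analysis was possible because the sample numbers are unique across groups. For exposed against unexposed NZM skin, sample quality weights gave 3980 genes higher and 3804 lower and a threshold of 0.01 gave 1122 and 1221, against 2039 and 2058. A fit of only the groups compared gave 2634 higher and 2630 lower. Leaving out 1 library gave 1501 to 2023 higher and 1613 to 2038 lower. For NZM against WT (10 more positive, 12 more negative), a pseudocount of 8 gave 35 and 35, only the groups compared 25 and 25, weights 149 and 125, edgeR 6 and 3, DESeq2 143 and 64, the threshold of 0.01 gave 4 and 4, and leaving out 1 library gave 5 to 23 and 8 to 18. The lowest of these came without unexposed WT library 45. For NZM against iNZM (0 more positive, 1 more negative), DESeq2 gave 2 and 3. The 1 call fell to 0 with a filter at 50, only the groups compared, weights, edgeR, a threshold of 0.01, or without libraries 46 and 47, and was 0 to 1 on leaving out 1 library. The cause of these shifts was not tested. Of 152 named genes called in NZM, 145 remained called in each of the 10 fits without 1 library. Many of these genes were named for large differences or low adjusted p in the same data. That share therefore does not hold for called genes in general. Quantile normalization reversed Eef1a1 (0.27). Depth, 18.49 to 37.76 M reads over the series, limits genes with few reads most.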
